A study of Homo sapiens with 4 samples.

Results

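The genes described here encode 46 proteins of cytosolic mRNA translation: the initiation factors of the eIF1 to eIF6 series, the elongation factors eEF1 and eEF2, the poly(A)-binding proteins PABPC1 and PABPC4, the release factors ETF1 and GSPT1, and TPT1. They were chosen by name; the rule uses no measured value, but the list was drawn up with earlier results of these data known. A gene's level was summed over its transcripts that had not failed quantification. All 46 of the listed names were found among the 53617 genes of the deposited tables. Each of them reached a mean of 1 FPKM in both comparisons. FPKM divides reads by the length of the transcript and the size of the library.

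RNA was sequenced from HT29 cells, a long-established line from a human colon adenocarcinoma, at passages 12 to 13. The 4 groups were HT29 cells given a miR-23b precursor, the control for that precursor, an antimir against miR-23b, and the control for that antimir. Each was transfected at 50 nM (the labels write "50nm") with Lipofectamine 2000, at 90% confluency in 5% serum, with RNA taken after 48 h. The precursor is a synthetic RNA from which cells make the microRNA, whereas the antimir binds the microRNA and keeps it from its targets. Each group held 1 library, so no value below has a replicate error and no difference between treated and control cells was tested. All the groups were transfected, and no untreated cells were analysed here. The deposited tables hold no read counts, so the depth of the libraries is unknown. Both loci that encode miR-23, MIR23B and MIR23A, had values of 0 in every library, so the level of the microRNA that was raised or blocked could not be checked. The epithelial markers KRT8, EPCAM and CDH1 were present in all 4 libraries (KRT8 at 6798 and 6664 FPKM in the precursor pair, and at 2410 and 2346 FPKM in the antimir pair), while CDX1 stayed below 1 FPKM. CDX2 was low, at 2.87 and 2.42 FPKM in the precursor pair and 2.19 and 2.36 FPKM in the antimir pair. CEACAM5 was at 1.78 and 1.28 FPKM, and at 0.785 and 0.979 FPKM. Of the 11 epithelial markers listed, 10 reached a mean of 1 FPKM in the precursor comparison and 9 in the antimir comparison. Of 12 genes that mark leukocytes, endothelium, fibroblasts or muscle, PTPRC and COL3A1 were at or near 0, and CD68 and CD14 were past the level filter. CD68 was at 5.59 FPKM with the precursor against 4.18 (0.33) and at 5.14 with the antimir against 4.16 (0.29), and CD14 at 2.76 against 1.74 (0.43) and at 1.804 against 1.780 (0.05). Over the 12 genes the summed level was 10.1 FPKM in the precursor library against 8.04 in its control, and 8.71 in the antimir library against 7.75 in its control, and its part in the differences below was not tested.

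In eukaryotic cells, eIF2 brings the initiator tRNA to the small ribosomal subunit, and eIF2B recharges eIF2 with GTP. The scaffold eIF3 and the small factors eIF1 and eIF1A hold that subunit ready, while the cap-binding factor eIF4E, the scaffold eIF4G and the helicase eIF4A load it onto an mRNA. eEF1A then delivers aminoacyl-tRNAs to the ribosome and eEF2 moves it along. The mRNAs of many of these proteins, like those of ribosomal proteins, begin with a C followed by an unbroken run of C and T. This 5′ terminal oligopyrimidine (TOP) motif is known for placing translation of an mRNA under control of growth signals through mTOR. From textbook knowledge, 12 of the genes were listed as TOP mRNAs: EEF1A1, EEF1B2, EEF1D, EEF1G, EEF2, EIF3A, EIF3E, EIF3F, EIF3H, EIF4B, PABPC1 and TPT1. This list too was drawn up with earlier results of these data known.

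The start of the mRNA is shown first, because the TOP list genes had the lower median in the antimir comparison. Each line runs from 5 bases before the RefSeq start site to the 20th base of the transcript (GRCh38.p14), and the capitals mark the unbroken run of C and T that begins with a C at the start site. The first 5 genes are on the TOP list, and EIF3D, EIF3K, EIF3M, EIF4A2 and EIF2S3 are not.
EEF1A1 (chr6:73521013-73521037, minus strand): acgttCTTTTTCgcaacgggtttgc
EEF2 (chr19:3985444-3985468, minus strand): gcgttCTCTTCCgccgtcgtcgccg
TPT1 (chr13:45341164-45341188, minus strand): tcggcCTTTTCCgcccgctcccccc
EIF4B (chr12:53006451-53006475, plus strand): cgggtCTTTTgcgttctctttccct
EIF3F (chr11:7987332-7987356, plus strand): gcctcCTTCTTTCTCgacaagatgg
EIF3D (chr22:36529147-36529171, minus strand): gtttcCTCTTTTCCTggtttctcaa
EIF3K (chr19:38619183-38619207, plus strand): accacCTCTTCCTgttcccgtcctt
EIF3M (chr11:32583826-32583850, plus strand): gttccCTTTTCCggtcggcgtggtc
EIF4A2 (chr3:186783572-186783596, plus strand): gctgtCTTTTCagtcgggcgctgag
EIF2S3 (chrX:24054951-24054975, plus strand): ccttcCTCTTTTggcaacatggcgg

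A start window was used for 37 of the 46 genes. A run of at least 5 bases beginning with C at the start site was found in 5 of 7 TOP list genes (71.4%) and in 5 of the 30 others (16.7%). The same pattern was found in 43 of 63 ribosomal protein genes (68.3%) and in 1429 of all 35116 start windows (4.07%). EEF1G and EEF1B2 are TOP list genes whose annotated start is an A, so the pattern was not found in these windows. The length of 5 was set after the windows had been seen.

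The microRNA is shown with its seed, bases 2 to 8, in capitals (RefSeq, chr9:95085265-95085287, plus strand, GRCh38.p14).
miR-23b-3p: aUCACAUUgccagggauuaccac

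A site for this seed is AATGTGA on the mRNA strand, or AATGTGAA with the added A of an 8-mer, counted in the longest annotated 3′ UTR of each gene. Such a 7-mer was present in 9 of the 46 genes (19.6%), against 20.5% of all genes with a 3′ UTR in the precursor comparison and 20.7% in the antimir comparison. The 9 were EIF1, EIF5, EIF3A, GSPT1 and TPT1, with a 7-mer, and EIF1AX, EIF2B2, EIF3F and EIF3M, with an 8-mer. The 8-mers are shown with the site in capitals (GRCh38).
EIF1AX (chrX:20125315-20125344, minus strand): gaaaagagcaaAATGTGAAaagacacaaga
EIF2B2 (chr14:75010507-75010536, plus strand): tcactgcatttAATGTGAAtttgttaccaa
EIF3F (chr11:8001125-8001154, plus strand): acagacacacaAATGTGAAaagatgcttga
EIF3M (chr11:32603162-32603191, plus strand): gaaaagtatacAATGTGAAtgtgtaggctt

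These genes were highly expressed in HT29 cells. In the precursor control their levels ran from 13.9 FPKM (EIF2B2) to 8144 FPKM (TPT1), with a median of 253, and in the antimir control from 4.08 FPKM (EIF3C) to 5898 FPKM (TPT1), with a median of 155. TPT1, an abundant calcium-binding protein also called TCTP, and EEF1A1, which delivers tRNA, were the highest in both controls. Next came EIF4G2, an eIF4G relative that lacks the region that binds eIF4E, PABPC1, which coats poly(A) tails, and EEF1G, a subunit of the eEF1 exchange complex. Subunits of eIF2B were among the lowest, with EIF2B2, EIF2B3 and EIF2B4 below 30 FPKM in each library. Together the 46 genes held 1.53% of all FPKM with the precursor against 1.43% in the control, and 1.43% with the antimir against 1.61%. The tables were normalised separately, and the control of the precursor table stood above that of the antimir table for every one of the 46 genes, by a median ratio of 1.41.

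**Figure D1:**
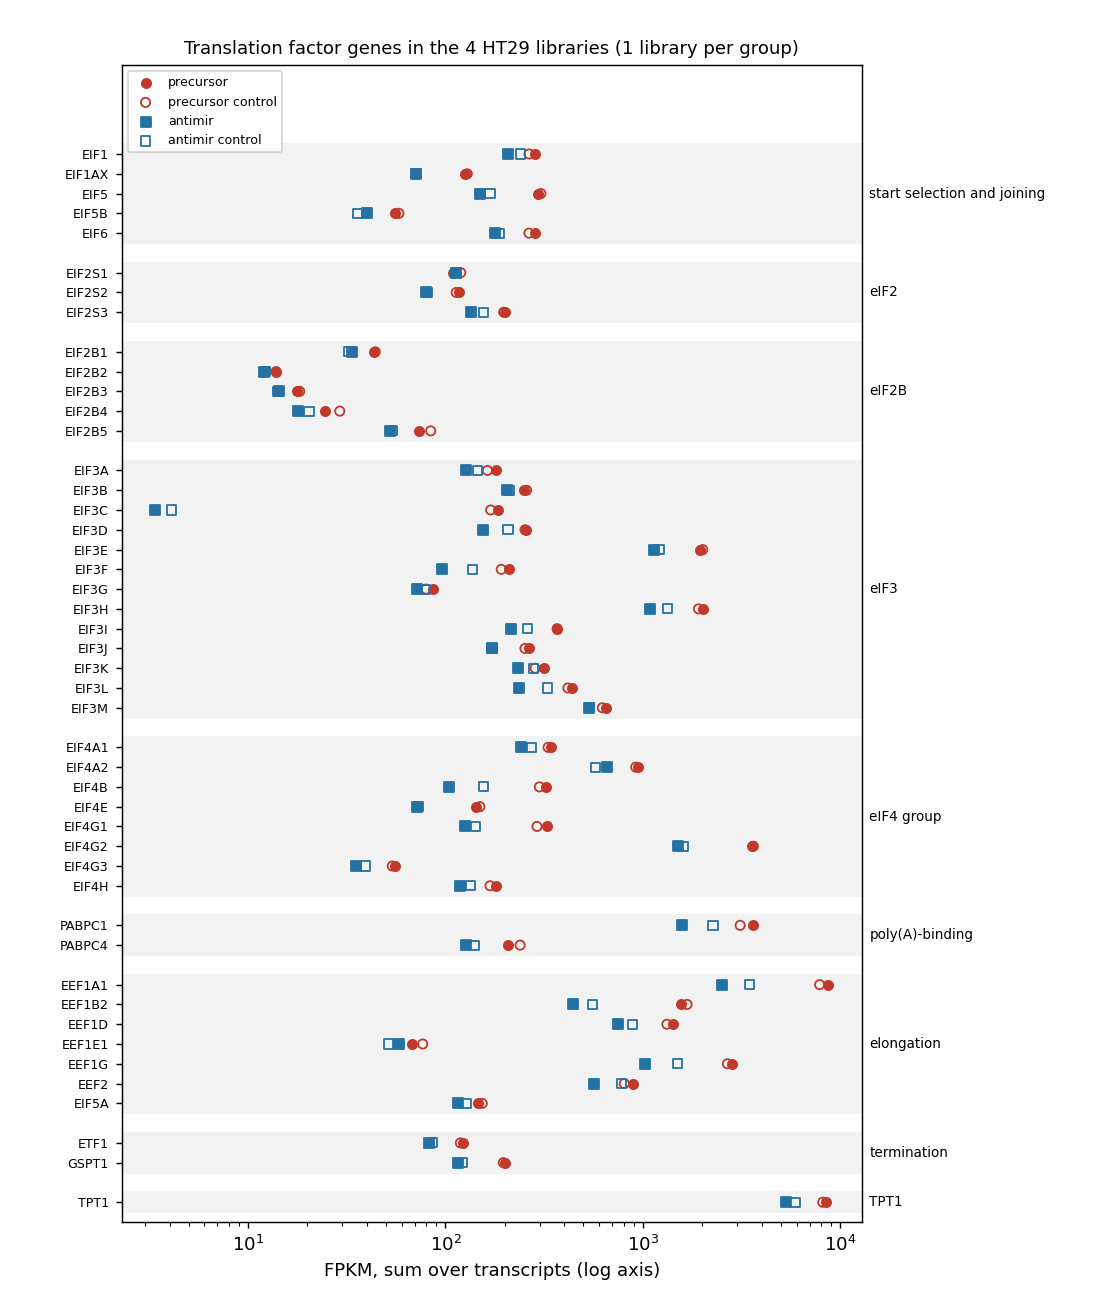
Summed FPKM of each of the 46 genes (log axis) in the 4 libraries, 1 point per library, grouped by role. Levels run from 3.39 FPKM (EIF3C in the antimir library) to 8687 FPKM (EEF1A1 in the precursor library), and treated and control points of a pair lie close together for most genes.

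Differences are given as log2(FPKM + 1) of the treated library minus that of its control, centred on the median of all genes whose mean FPKM was 1 or more. That median, 0.022 in the precursor comparison and -0.038 in the antimir comparison, was removed. The first comparison asks what differs when miR-23b is supplied. With the precursor, the 46 genes lay close to their control levels: their median difference was 0.021, 33 of them were within 0.1 of 0, and 26 were above and 20 below 0. Those below 0 were 43.5% of the 46, beside 44.7% of 2951 protein-coding genes at a mean of 50 FPKM or more, whose median was 0.015. No gene was past 1.5-fold in either direction, where 3.36% of all 16982 genes were higher and 3.32% lower by that much. Among the 2951 protein-coding genes at a mean of 50 FPKM or more, which is the level of most of the genes here, 0.102% were higher and 0.136% lower by 1.5-fold. The differences ran from -0.27 for EIF2B4, a subunit of eIF2B, to 0.19 for PABPC1. At 1.2-fold, a threshold chosen after the values were seen, EIF2B4 alone was lower (2.17% of the 46) and none was higher, a count of lower genes that ran from 0 to 3 under other processing. At that threshold 9.49% of all genes were higher and 10.6% lower, and 3.22% and 2.24% of the protein-coding genes at a mean of 50 FPKM or more.

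The second comparison asks what differs when miR-23b is blocked. With the antimir, 34 of the 46 genes (73.9%) were below 0, with a median of -0.11, beside 52.1% of the 2139 protein-coding genes at a mean of 50 FPKM or more, whose median was -0.01. Again no gene was past 1.5-fold, where 5.07% of all 14190 genes were higher and 2.9% lower, and 1.17% and 0.0935% of the protein-coding genes at that level. At 1.2-fold, 9 of the 46 genes (19.6%) were lower and none was higher. The background at 1.2-fold was 11.5% lower and 14.1% higher over all genes, and 5.84% lower and 5.84% higher over the protein-coding genes at a mean of 50 FPKM or more. The 9 genes were EIF4B, EEF1G, PABPC1, EIF3F, EIF3L, EEF1A1, EEF2, EIF3D and EEF1B2.

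**Figure D2:**
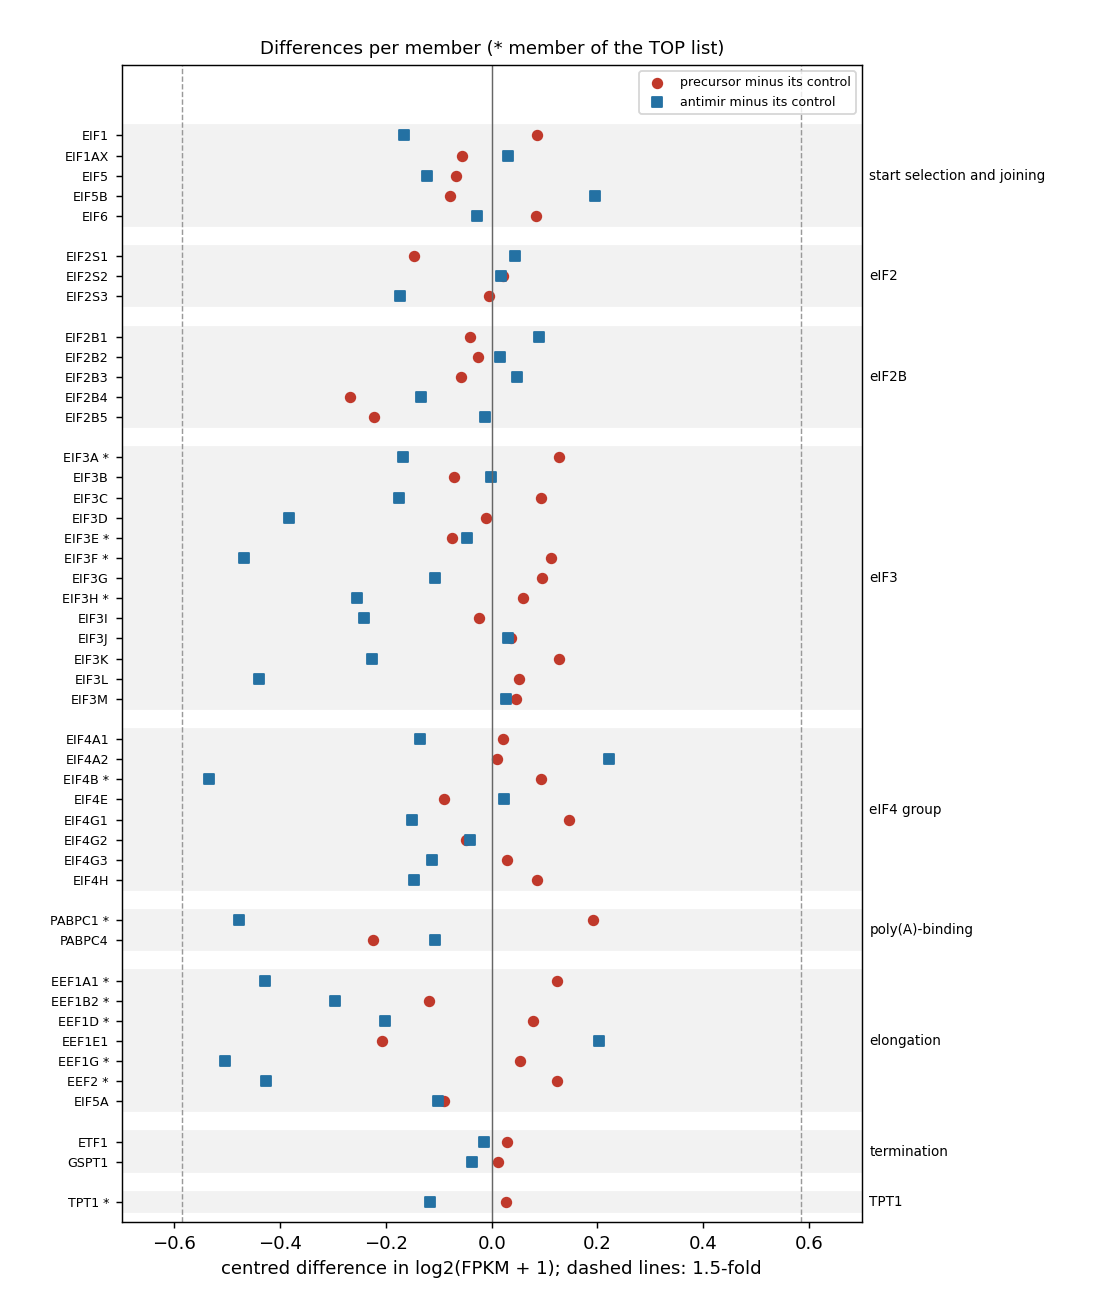
Centred log2(FPKM + 1) difference of each gene, precursor minus its control (circles) and antimir minus its control (squares), by role; the dashed lines mark 1.5-fold. No point reaches the lines; the lowest are EIF4B, EEF1G and PABPC1 in the antimir comparison, at -0.53, -0.50 and -0.48.

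The elongation factors included several of the most abundant genes of the set and some of its largest differences. EEF1A1 (hg19 locus chr6:74225473-74280319) was at 8687 FPKM with the precursor against 7853 in the control, and at 2513 FPKM with the antimir against 3473 in the control. It was therefore slightly higher with the precursor (0.12) and lower with the antimir (-0.43). EEF2 (hg19 locus chr19:3972316-3985461), which translocates the ribosome, gave 890 against 805 FPKM and 565 against 780 FPKM. Its differences, 0.12 and -0.43, were those of EEF1A1 to 2 decimals.

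EEF1G was at 2825 FPKM with the precursor against 2681, and at 1025 FPKM with the antimir against 1493 (0.05 and -0.50). EEF1D, the subunit that exchanges GDP for GTP on eEF1A, was at 1419 against 1324 FPKM and at 747 against 883 FPKM (0.08 and -0.20). EEF1B2, which has the same exchange activity, was the one TOP list gene besides EIF3E that stood below its control with the precursor, at 1567 against 1674 FPKM (-0.12). With the antimir EEF1B2 was at 442 against 558 FPKM (-0.30), a value that rests on 1 of its transcripts because the other 10 had failed quantification. With the failed entries kept it was at 779 against 959 FPKM (-0.26).

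EEF1E1, which sits in the multi-tRNA synthetase complex and is not on the TOP list, ran the other way. It was at 67.4 FPKM with the precursor against 76.7 in the control, and at 57.9 FPKM with the antimir against 51.5 in the control (-0.21 and 0.20). EIF5A, the hypusine-bearing factor that relieves stalled ribosomes, was slightly lower in both, at 146 against 154 FPKM and 116 against 128 FPKM (-0.09 and -0.10). Over the 7 elongation genes the median was 0.05 with the precursor and -0.30 with the antimir, where 6 of 7 were below 0 and EEF1E1 was the exception.

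The poly(A)-binding proteins differed from each other. PABPC1, the main cytoplasmic form, gave 3606 FPKM with the precursor against 3110, and 1586 FPKM with the antimir against 2267. It was the highest of the 46 genes with the precursor (0.19) and among the lowest with the antimir (-0.48). PABPC4, the inducible form, was at 208 against 239 FPKM with the precursor and at 127 against 140 FPKM with the antimir, below its control in both (-0.22 and -0.11).

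Of the cap-binding group, EIF4B (hg19 locus chr12:53399942-53458156), which stimulates the eIF4A helicase, had the lowest difference of all 46 genes. It was at 104 FPKM with the antimir against 155 (-0.53), and at 324 against 299 FPKM in the precursor pair (0.09). EIF4H, which has a similar stimulating role, was at 118 against 134 FPKM and at 181 against 168 FPKM (-0.15 and 0.08). EIF4A1, the main helicase, was at 241 against 272 FPKM with the antimir (-0.14) and at 341 against 331 FPKM with the precursor (0.02).

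EIF4A2, a close relative of EIF4A1, had the highest difference of the set in the antimir comparison, at 655 FPKM against 577 (0.22), and was at 940 against 920 FPKM in the precursor pair (0.01). The cap-binding protein EIF4E was near its control in both, at 143 against 149 FPKM and 71.8 against 72.5 FPKM (-0.09 and 0.02). The scaffold EIF4G1 was at 327 against 291 FPKM with the precursor and at 125 against 142 FPKM with the antimir (0.15 and -0.15). The other 2 scaffolds showed smaller differences in the sum: EIF4G2 was at 3562 against 3626 FPKM and 1509 against 1595 FPKM (-0.05 and -0.04), and EIF4G3 at 55.7 against 53.7 FPKM and 35.4 against 39.4 FPKM (0.03 and -0.11). In coding transcripts EIF4G3 was at 11.9 against 8.07 FPKM with the precursor (0.48), and at -0.10 with the antimir. For EIF4G2 the coding transcripts gave -0.07 with the precursor and 0.13 with the antimir, where its most abundant transcript gave -0.28.

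Among the 13 eIF3 subunits, 11 were below 0 with the antimir (median -0.18) and 9 were above 0 with the precursor (median 0.05). EIF3A, the largest subunit and a core of the complex, was at 126 FPKM with the antimir against 146, and at 181 FPKM with the precursor against 163 (-0.17 and 0.13). EIF3F, another subunit of the complex, was at 95.7 against 136 FPKM and at 210 against 192 FPKM (-0.47 and 0.11). EIF3L, which is not on the TOP list, was at 235 against 328 FPKM and at 439 against 417 FPKM (-0.44 and 0.05). In the antimir pair 76.1% and 76.4% of its FPKM lay in retained-intron transcripts. Its coding transcripts were at only 1.07 FPKM with the antimir against 1.77.

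EIF3D, the subunit that can itself contact the cap of some mRNAs, was lower with the antimir at 155 against 207 FPKM (-0.38) and level with the precursor at 255 against 253 FPKM (-0.01). EIF3K was at 233 against 280 FPKM and at 316 against 285 FPKM (-0.23 and 0.13). EIF3H was at 1090 against 1337 FPKM with the antimir (-0.26), while EIF3E, a subunit of similar level, was at 1136 against 1206 FPKM (-0.05). EIF3J and EIF3M were the 2 subunits above 0 with the antimir, each at 0.03. The eIF3 genes on the TOP list (4) and off it (9) had medians of -0.21 and -0.18 with the antimir, which lie close together. EIF3C, whose level in the antimir pair is uncertain, was at -0.18 and is itself the middle gene of the 9 and of all 13.

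EIF3C has a near-identical copy, EIF3CL, so how its reads were assigned is uncertain. It was at 184 against 169 FPKM in the precursor table and at 3.39 against 4.08 FPKM in the antimir table, a ratio of 41.5 between the control libraries of these tables. For the other 45 genes that ratio ran from 1.003 to 3.002. EIF3CL was at 76.5 against 71.3 FPKM in the precursor table and near 0 in the antimir table (0.030 against 0.027 FPKM). Both copies were thus far lower in the antimir table, and the cause was not tested. The differences of EIF3C were 0.09 and -0.18.

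The subunits of eIF2 were close to their controls. EIF2S1, the alpha subunit phosphorylated in the integrated stress response, was at 110 against 119 FPKM with the precursor and 113 against 113 FPKM with the antimir (-0.15 and 0.04). EIF2S2 was at 117 against 113 FPKM and 79.7 against 80.8 FPKM (0.02 and 0.02). EIF2S3, which binds GTP and the initiator tRNA, was at 199 against 197 FPKM and 134 against 155 FPKM (-0.01 and -0.17).

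All 5 subunits of eIF2B were below 0 with the precursor (median -0.06; 4 of 5 when only the most abundant transcript was used), and 3 of 5 were above 0 with the antimir (median 0.02). With the most abundant transcript alone the antimir direction turned, to 4 of 5 below 0 and a median of -0.11. EIF2B4 was at 24.4 against 29.1 FPKM with the precursor and 18.0 against 20.4 FPKM with the antimir (-0.27 and -0.13). EIF2B5, the catalytic subunit, was at 73.2 against 84.2 FPKM and 52.1 against 54.0 FPKM (-0.22 and -0.01). EIF2B1 was at 43.5 against 44.1 FPKM and 33.7 against 32.5 FPKM (-0.04 and 0.09). EIF2B2 and EIF2B3 stayed within 0.06 of 0 in both. For EIF2B4 the coding transcripts alone summed to 12.9 FPKM with the precursor against 12.5, a difference of 0.01.

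Start-site selection and subunit joining showed no common direction. EIF1, which guards the choice of start codon, was at 286 against 265 FPKM with the precursor and 208 against 240 FPKM with the antimir (0.09 and -0.17). Transcripts annotated as coding held between 1.14% and 2.10% of the FPKM of EIF1 in each library. EIF1AX, its partner on the small subunit, was at 126 against 129 FPKM and 70.5 against 70.9 FPKM (-0.06 and 0.03). EIF5, which triggers GTP hydrolysis on eIF2, was at 295 against 304 FPKM and 150 against 168 FPKM (-0.07 and -0.12).

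EIF5B, the GTPase that joins the subunits, was at 55.8 against 58.1 FPKM with the precursor and was one of the higher genes with the antimir, at 40.0 against 35.8 FPKM (-0.08 and 0.20). EIF6, which keeps free large subunits apart from small ones, was at 285 against 265 FPKM and 179 against 187 FPKM (0.08 and -0.03). The release factors were near 0 in both comparisons. ETF1, which reads stop codons, was at 123 against 119 FPKM and 82.5 against 85.7 FPKM (0.03 and -0.02), and its GTPase partner GSPT1 at 201 against 196 FPKM and 116 against 123 FPKM (0.01 and -0.04). TPT1 was at 8423 against 8144 FPKM and 5301 against 5898 FPKM (0.03 and -0.12).

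The remaining subunits were EIF3B, EIF3G and EIF3I. With the precursor they differed from their control by -0.07 to 0.10, and with the antimir they were at -0.00, -0.11 and -0.24 in that order.

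The TOP list cuts across these roles. With the antimir, 12 of 12 TOP list genes were below 0, with a median of -0.36, and 7 of them were lower by 1.2-fold. The other 34 genes had a median of -0.04, with 22 below 0 and 2 lower by 1.2-fold, EIF3D and EIF3L. Of the protein-coding genes at a mean of 50 FPKM or more, 52.1% were below 0 and 5.84% lower by 1.2-fold. Over all genes 11.5% were lower by that much. With the precursor, 10 of 12 TOP list genes were above 0, with a median of 0.09, and the other 34 genes had a median of -0.01, with 16 above and 18 below. In that comparison 1633 of 2951 protein-coding genes at a mean of 50 FPKM or more were above 0, with a median of 0.015. These are descriptions of 1 pair of libraries each. The difference between the lists was not tested. Since the TOP list was drawn up with earlier results of these data known, its counts are not an independent result. The TOP list holds TPT1, EEF1A1, PABPC1 and EEF1G, which are among the most abundant of the 46 genes, while EIF4G2 is off it. The part of abundance in this contrast was not tested.

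**Figure D3:**
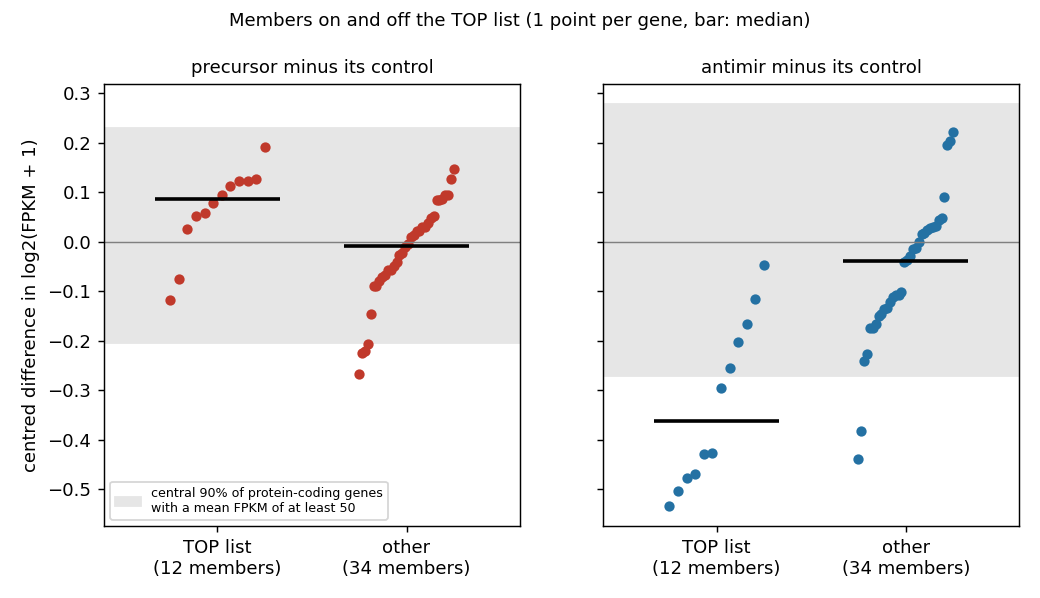
Centred log2(FPKM + 1) differences of the 12 TOP list genes and the other 34 genes, 1 point per gene with the median as a bar, over the central 90% of protein-coding genes at a mean of 50 FPKM or more (grey). In the antimir panel all the TOP list points are below 0, with a median of -0.36 against -0.04 for the others.

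The run at the annotated start overlaps with the list, since 5 of the 10 genes that have it are TOP list genes. The 10 genes with the run had a median of 0.07 with the precursor (8 above 0) and -0.30 with the antimir (8 below 0). The 27 genes whose window lacked it had medians of -0.04 and -0.04, with 18 of 27 below 0 in the antimir comparison. The 5 with the run that are off the list (EIF3D, EIF3K, EIF2S3, EIF3M and EIF4A2) were at -0.38, -0.23, -0.17, 0.03 and 0.22 with the antimir, a median of -0.17 with 3 below 0. The 25 off the list without it had a median of -0.03, with 16 below 0. EIF4A2 and EIF3M carry the run and were above 0 with the antimir. EEF1G had no run at its annotated start and was at -0.50.

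Cytosolic ribosomal protein genes, most of which are TOP mRNAs too, had a median of -0.19 with the antimir, and 76 of 78 were below 0. With the precursor their median was 0.06, and 59 of 79 were above 0. They held 8.06% of all FPKM with the antimir against 8.94% in the control, and 7.83% with the precursor against 7.29%. RPL3, at 854 against 1204 FPKM (-0.46), and RPL7A, at 1114 against 1566 FPKM (-0.45), had the lowest differences of that list with the antimir.

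Across the 46 genes, the difference with the precursor and that with the antimir ran in opposite directions (Pearson's r = -0.50, Spearman's rho = -0.57). By count, 22 genes were above 0 with the precursor and below 0 with the antimir, 8 the reverse, 12 below 0 in both and 4 above 0 in both. Neither these counts nor the correlations were computed over all genes, so whether they are particular to the 46 genes is not known. Abundant genes had the lower differences with the antimir (rho = -0.50 with the log2 FPKM in the control) and somewhat higher ones with the precursor (rho = 0.36). Genes are not independent replicates, and all points of a comparison share the same pair of libraries, so these values are descriptions only.

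Among the 46 genes, those with a miR-23b seed site did not have the lower median with the precursor. Whether the sites go with lower levels was not tested, since each group held 1 library. The 9 genes with a 7-mer had a median of 0.03 with the precursor and the 37 without one 0.02, and with the antimir both medians were near -0.11 (-0.12 and -0.11). Over all genes with a 3′ UTR, the medians with and without a 7-mer were -0.02 and 0.01 with the precursor. In that wider set the genes with a site thus had the lower median. With the antimir the medians were -0.00 and -0.00. Genes with a site also had longer 3′ UTRs, with a median of 3863 against 619 bases among the 46 genes. The part of UTR length in these medians was not tested. Of the 4 genes with an 8-mer, EIF1AX and EIF2B2 were slightly below 0 with the precursor (-0.06 and -0.03), and EIF3F and EIF3M above it (0.11 and 0.05). The site of EIF3F lies at base 5114 of a 3′ UTR of 5840 bases, and no value here says which form of that UTR HT29 cells use.

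The 46 genes comprised 574 annotated transcripts, from 1 to 57 per gene with a median of 10.5. Of these, 529 (92.2%) were matched by identifier in GENCODE 29. Protein-coding transcripts took 61.5% of the FPKM of the set with the precursor against 61.2% in the control, and 75.5% with the antimir against 75.6%. Retained-intron transcripts took 9.97% against 10.03%, and 7.22% against 6.12%. Transcripts annotated as targets of nonsense-mediated decay took 11.02% against 11.2%, and 5.78% against 5.54%. Treated and control libraries of a pair were thus alike in makeup, and the tables differed more from each other.

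The authors' deposited table for the precursor called 75 of 461 tested transcripts of these genes different (16.3%), where it called 13.6% of all 78175 tested transcripts. Of these calls 40 were higher and 35 lower, where the table called 6.91% of all tested transcripts higher and 6.66% lower. They fell in 27 genes, 13 of which had calls in both directions, and 12 of the called transcripts were listed at 0 in one of the libraries. The authors' deposited table for the antimir called 0 of 372, where it called 0.414% of all 62029 transcripts (0.243% higher and 0.171% lower), and the lowest authors' p-value among these was 0.0239. An authors' p-value below 0.05 was given for 1 of these transcripts in the antimir comparison and for 116 in the precursor comparison. These calls compare 1 library with another and not conditions.

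PABPC1 had 6 transcripts called higher and 1 called lower with the precursor in the authors' deposited table. The most abundant of these, ENST00000519622.1, annotated as a target of nonsense-mediated decay, was at 400 FPKM against 315 (authors' deposited table, q-value 0.0171). EIF4A2 had the most calls in the authors' deposited table, 4 higher and 6 lower, beside a gene-level difference of 0.01. Of its 10 called transcripts, 6 were retained-intron forms, and 5 of these were lower.

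For some genes the sum over transcripts and the coding transcripts disagreed. For PABPC4 the most abundant entry in the precursor table was a retained-intron transcript, ENST00000461578.1, at 67.5 FPKM against 100, which the authors marked as low data. Its coding transcripts stood at 102 FPKM against 94.8 (0.07), against a sum at -0.22. In the antimir comparison the coding transcripts of PABPC4 were at 58.2 against 73.7 FPKM (-0.30). For EIF4A2 the most abundant entry was a retained-intron transcript at 266 FPKM with the antimir against 219. Its coding transcripts were at 144 against 154 FPKM (-0.06), so the highest gene of the antimir comparison was slightly below its control in its coding forms. EIF2B3 gave -0.06 with the precursor in the sum, while its most abundant transcript, at 8.52 FPKM against 11.2, gave -0.39.

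For the TOP list genes with the lowest values, the coding transcripts gave much the same difference as the sum. With the antimir, PABPC1 was at 1308 against 1875 FPKM in coding transcripts (-0.48), EEF1A1 at 2049 against 2768 (-0.40), and EEF2 at 438 against 593 (-0.40). EIF4B was at 33.3 against 52.7 FPKM (-0.61), past 1.5-fold, and EIF3D, not on the TOP list, was at 30.1 against 47.3 FPKM (-0.60), also past it.

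**Figure D4:**
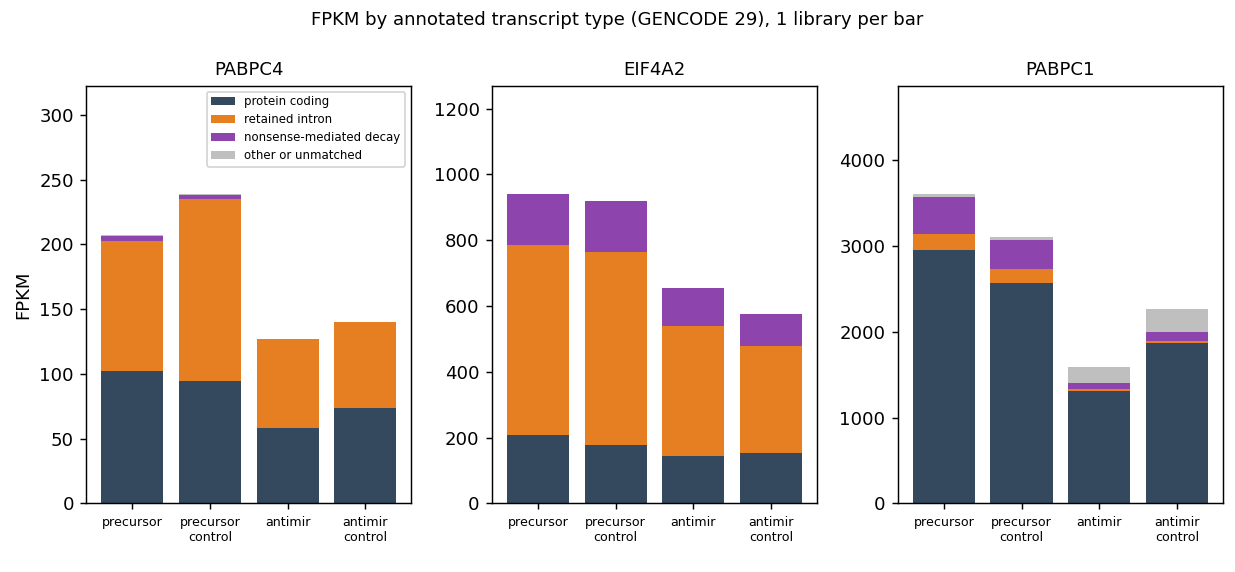
FPKM of PABPC4, EIF4A2 and PABPC1 in each library, stacked by the transcript type annotated in GENCODE 29, 1 library per bar. Retained-intron transcripts (orange) take the larger part of EIF4A2 in all 4 libraries and between 47.5% and 58.7% of PABPC4, and PABPC1 is largely protein coding, with coding forms at 1308 FPKM with the antimir against 1875.

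Several of these genes have processed pseudogenes, whose near-identical sequence can take or give reads. The tables listed 78 pseudogenes of 13 of the genes in the precursor comparison, at 5931 FPKM with the precursor against 5312. In the antimir comparison 77 were listed, at 62.97 and 77.96 FPKM. Those of EEF1A1 alone stood at 5218 against 4601 FPKM in the precursor table, or 37.5% and 36.9% of gene and pseudogenes together, and at 29.9 against 43.5 FPKM in the antimir table. The pseudogene share was also large for EIF2S2 (42.0% with the precursor and 42.9% in the control), EIF4B (30.5% and 30.5%) and EIF4A1 (23.1% and 23.8%). Levels of these genes therefore cannot be compared between the tables. Of the 46 genes, 41 share their listed locus with another gene of the tables, for example EIF4A2 with small nucleolar RNA genes, and whether the counting used strand was not given in the sources used here.

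Genes that act on these factors were described from a separate list of 33 translation regulators, of which 31 passed the level filter. Their medians were 0.01 with the precursor and -0.01 with the antimir. With the precursor none was past 1.5-fold. DPH2, which takes part in making the diphthamide of eEF2, had the lowest value, at 32.9 against 42.4 FPKM (-0.38), and PDCD4, an inhibitor of eIF4A, was at 152 against 129 FPKM (0.21). With the antimir 1 was past 1.5-fold: EIF2AK2, the kinase PKR that phosphorylates eIF2 on sensing double-stranded RNA, at 75.0 FPKM against 42.6 (0.84).

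Other regulators differed less with the antimir. EIF2AK3, the eIF2 kinase PERK of the endoplasmic reticulum, was at 12.1 against 8.15 FPKM (0.56). RPS6KB1, the S6 kinase downstream of mTOR, was at 9.89 against 14.1 FPKM (-0.44), and MKNK1, a kinase of eIF4E, was at 21.3 against 16.3 FPKM (0.40). LARP1, which binds TOP mRNAs, was at 77.5 against 86.5 FPKM (-0.12), and MTOR at 15.8 against 13.5 FPKM (0.26).

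EIF2AK2 is also an interferon-induced gene, and such genes were higher with the antimir. All 16 of a list of interferon-induced genes, EIF2AK2 included, were higher by at least 1.5-fold in the antimir library, with a median of 1.81 (IFI6 was at 814 FPKM against 163). Over all 14190 genes 5.07% were higher by that much, and 1.17% of the protein-coding genes at a mean of 50 FPKM or more. The list was drawn up with earlier results of these data known, so its count is not an independent result. With the precursor 12 of 13 genes of the list that could be measured were below 0, with a median of -0.29. Their part in the differences of the translation factors was not tested.

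Of 19 paralogues and further factors, 16 passed the filter with the precursor and 13 with the antimir, with medians of 0.08 and 0.03 and none past 1.5-fold. PABPC1L, a relative of PABPC1, was at 87.3 against 113 FPKM with the precursor (-0.39) and at 81.7 against 69.6 FPKM with the antimir (0.27). EIF5A2, a relative of EIF5A, was at 7.34 against 5.77 FPKM and at 5.47 against 7.43 FPKM (0.28 and -0.34). EIF2D, which can bring tRNA to the ribosome without eIF2, was at 41.0 against 53.1 FPKM with the antimir (-0.33). The factors of mitochondrial translation, which serve separate ribosomes, had medians of -0.03 over 9 genes with the precursor and 0.03 over 8 genes with the antimir. Centring removed -0.038 from each antimir difference, a shift larger than this median, so its side of 0 rests on the centring. The median of the 46 cytosolic factors with the antimir was -0.11. MTRF1, a mitochondrial release factor, was at 18.9 against 24.9 FPKM with the precursor (-0.40), and TUFM, the mitochondrial counterpart of eEF1A, at 215 against 244 FPKM with the antimir (-0.14).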

How the data were processed

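RNA sequencing of 4 HT29 libraries, 1 per group, was used as deposited. Per the submitters' processing notes, the tools were bcl2fastq 1.8.3, TopHat2 2.0.11, Cufflinks 2.2.0 and Cuffdiff, with the genome build hg19. Settings and annotation: not given in the sources used here. FPKM per isoform came in 2 tables from the authors, each with a treated library and the library named with a final N, which was taken as the control. Per the file headers, the authors' p-value and q-value accompany each isoform. FPKM carry no counts, so depth and counting error are unknown.

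Entries with a transcript identifier that had not failed were summed per gene (1321 precursor and 1528 antimir entries had failed). Differences in log2(FPKM + 1), which understate changes of low genes, were centred on the median of genes whose mean FPKM was 1 or more, 16982 and 14190 in number. With 1 library per group no test was made. Transcript types, and 3′ UTRs for the seed search, came from GENCODE 29 by identifier, and start windows and the microRNA from RefSeq tables (GRCh38.p14). Python 3.11.15 and pandas 2.3.3 were used, and the code was tested on simulated data.

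The members, lists, the 1.2-fold threshold and the run length were chosen with earlier results of these data known. Values were named for the head of each complex, the 5 highest and 5 lowest genes of each comparison, genes whose sum and most abundant transcript differed by over 0.3, and up to 4 genes per other list; other genes named were chosen after their values were seen. Alternatives varied the pseudocount, filter, centring, transcript choice, failed entries and pseudogenes.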

Additional observations from a re-analysis of the deposited data

Results flagged for a closer look

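In 8 of the 46 genes the differences from control were at least 0.1 in size on the centred log2(FPKM + 1) scale in both comparisons and ran in opposite directions, a threshold set after the values were seen. The 7 genes higher with the precursor and lower with the antimir were EIF3A (0.13 and -0.17), EIF3F (0.11 and -0.47), EIF3K (0.13 and -0.23), EIF4G1 (0.15 and -0.15), PABPC1 (0.19 and -0.48), EEF1A1 (0.12 and -0.43) and EEF2 (0.12 and -0.43). EEF1E1 was the reverse, at -0.21 and 0.20. The difference between the comparisons was not tested, since each direction rests on 1 treated and 1 control library. The share of all genes that would be flagged in this way was not computed, so the 8 cannot be set against a background. No cause was tested.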

How the results depend on the processing

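Across 12 alternatives, 9 of them planned and 3 chosen after seeing the data, the medians of the whole set and of the TOP list genes kept their direction, while that of the other genes with the precursor, -0.01, ran from -0.02 to 0.01. The median with the antimir ran from -0.15 to -0.11 and with the precursor from 0.01 to 0.04. For the TOP list genes the medians ran from -0.40 to -0.27 with the antimir and from 0.06 to 0.11 with the precursor, and between 32 and 40 of the 46 genes were below 0 with the antimir. The number of genes past 1.5-fold went from 0 to 1 with the precursor when only the most abundant transcript was used (PABPC4), and from 0 to 2 with the antimir when only coding transcripts were used (EIF3D and EIF4B, of 45 genes past the filter). The number lower by 1.2-fold with the precursor, 1, became 3 with the most abundant transcript and 0 with a pseudocount of 5, no filter, gene-identifier entries added, no centring or coding transcripts only, and with the antimir it ran from 8 to 12, around 9. The cause was not tested. A gene's difference moved by over 0.1 in 20 of 91 cases with coding transcripts only, in 18 of 92 with the most abundant transcript and in 3 of 91 with only the entries the authors tested. Of the 46 genes, 30 kept their sign in all settings with the precursor and 31 with the antimir. No paired analysis was possible because each group held 1 library. With no counts, what depth limits cannot be given.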
